A study of Mus musculus with 12 samples.

Results

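CD8a cells of the spleen were compared between wild-type mice after repeated social defeat stress and wild-type mice without stress. The genes described are all 2108 rows of the table that the authors listed for this comparison, out of 3684 genes listed for any comparison of the series and 2851 listed for any comparison in CD8a cells. In repeated social defeat, mice are stressed by bouts of defeat from an aggressive intruder. The stressed group held 3 C57Bl6/J mice that went through the 10 days of the paradigm, and the control group held 3 C57Bl6/J mice of the same genotype with no stress. Behaviour was tested for 1 day and splenocytes were taken on day 12. The other 6 of the 12 mice were S100a9-/- mice on the C57Bl6/J background, 3 with stress and 3 without, called knockout here. S100a9 encodes a subunit of calprotectin, a calcium-binding protein of neutrophils and monocytes. Each value averages a gene's expression over the CD8a cells of 1 mouse, read by droplet single-cell sequencing of transcript 3′ ends. The listed genes summed to 7828, 7719 and 7727 in the stressed mice, against 7015, 7051 and 7115 in the controls. The labels do not state the scaling, and where values are shares of a mouse's total, a rise of abundant genes lowers the share of the rest. Fewer cells that express a gene cannot be told apart from less RNA per cell.

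CD8 T cells recognise peptides on MHC class I through the T cell receptor, helped by the CD8 co-receptor. Naive cells recirculate through spleen and lymph nodes, are kept quiescent by transcription factors such as Foxo1 and Klf2, and carry receptors for homing to lymphoid organs. After activation they become effector and memory cells, which express chemokines such as Ccl5 and Xcl1 and the granule protein Nkg7. The labels give spleen and splenocytes but no sort, so the identity of the cells rests on the authors' assignment, and how it was made is not stated in the labels.

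Of the markers given for CD8a cells, Cd3d and Trbc2 were among the listed genes. Cd8a was not, and its values came from the other CD8a tables. Cd8a was 3.84, 4.16 and 3.75 in stressed mice, against 4.86, 4.45 and 4.63 in controls, so it was present in all 6 mice and every stressed mouse lay below every control. The 7 CD8a markers listed in any CD8a table summed to 54.4, 55.4 and 55.1 in stressed mice, against 57.1, 55.6 and 53.6 in controls. None of 4 markers of CD4 cells and none of 4 markers of platelets was listed in a CD8a table, so no value is given for them. The 9 of 18 B cell markers that were listed summed to 4.67, 4.87 and 6.98 in stressed mice, against 13.04, 7.79 and 7.11 in controls. Every stressed mouse lay below every control in this sum, and control mouse 1 was the highest. Ighm and Ighd, the 2 B cell markers of the wild-type table, were called lower, also on leaving out any 1 mouse. The 3 of 11 natural killer markers that were listed, Ccl5, Klre1 and Nkg7, are also expressed by effector CD8 T cells, and summed to 26.2, 22.8 and 28.6 in stressed mice, against 12.1, 17.0 and 11.4 in controls. The 5 of 12 neutrophil markers, S100a8 and S100a9 among them, summed to 0.265, 0.0981 and 0.170 in stressed mice, against 0.00618, 0.0474 and 0.0180 in controls. The 5 of 17 markers of monocytes, macrophages and dendritic cells summed to 7.86, 7.91 and 8.21 in stressed mice, against 5.47, 6.64 and 6.05 in controls, and most of each sum was Ly6c2, which memory CD8 T cells also express. Erythroid markers, 5 of 9, summed to 0.688, 0.230 and 0.605 in stressed mice, against 0.850, 0.0769 and 0.0342 in controls, with control mouse 1 apart from the other controls. None of the 4 erythroid markers of the wild-type table was called, and all 4 were called higher without that mouse. Of the B cell, natural killer, neutrophil and monocyte lists, defining genes such as Cd79a and Ms4a1, Ncr1 and Klrb1c, Mpo and Csf3r, and Csf1r were not listed in any CD8a table and are not analysed here.

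Of the 2108 genes, 1438 passed the test at an adjusted p under 0.05 (limma on log2(value + 0.1), two-sided, Benjamini-Hochberg), which is 68.2%. Called higher after stress were 563 genes (26.7%) and called lower 875 genes (41.5%). Falls were larger than rises. The median log2 change was 0.38 among genes called higher and -0.79 among genes called lower. A change over 0.5 on the log2 scale was seen in 128 of the genes called higher and in 838 of those called lower, and a change over 1 in 4 of those called higher and 91 of those called lower. Every stressed mouse lay above every control in 671 genes (31.8%) and below every control in 872 genes (41.4%). The genes called higher summed to 4831, 4481 and 4583 in stressed mice, against 3326, 3327 and 3430 in controls. The genes called lower summed to 1237, 1268 and 1258 in stressed mice, against 2020, 1909 and 1939 in controls. All genes were listed by the authors with these same mice, so these shares describe the table and are not independent evidence of direction. The table is uneven in the size of its changes: 949 genes had a change between 0 and 0.4 and only 54 a change between -0.4 and 0, while 246 had a change of 0.4 or more and 859 one of -0.4 or less. Centring each mouse on the median of its listed genes moved the median change of all genes from 0.09 to 0.29 and turned the split to 1142 higher and 854 lower.

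**Figure D1:**
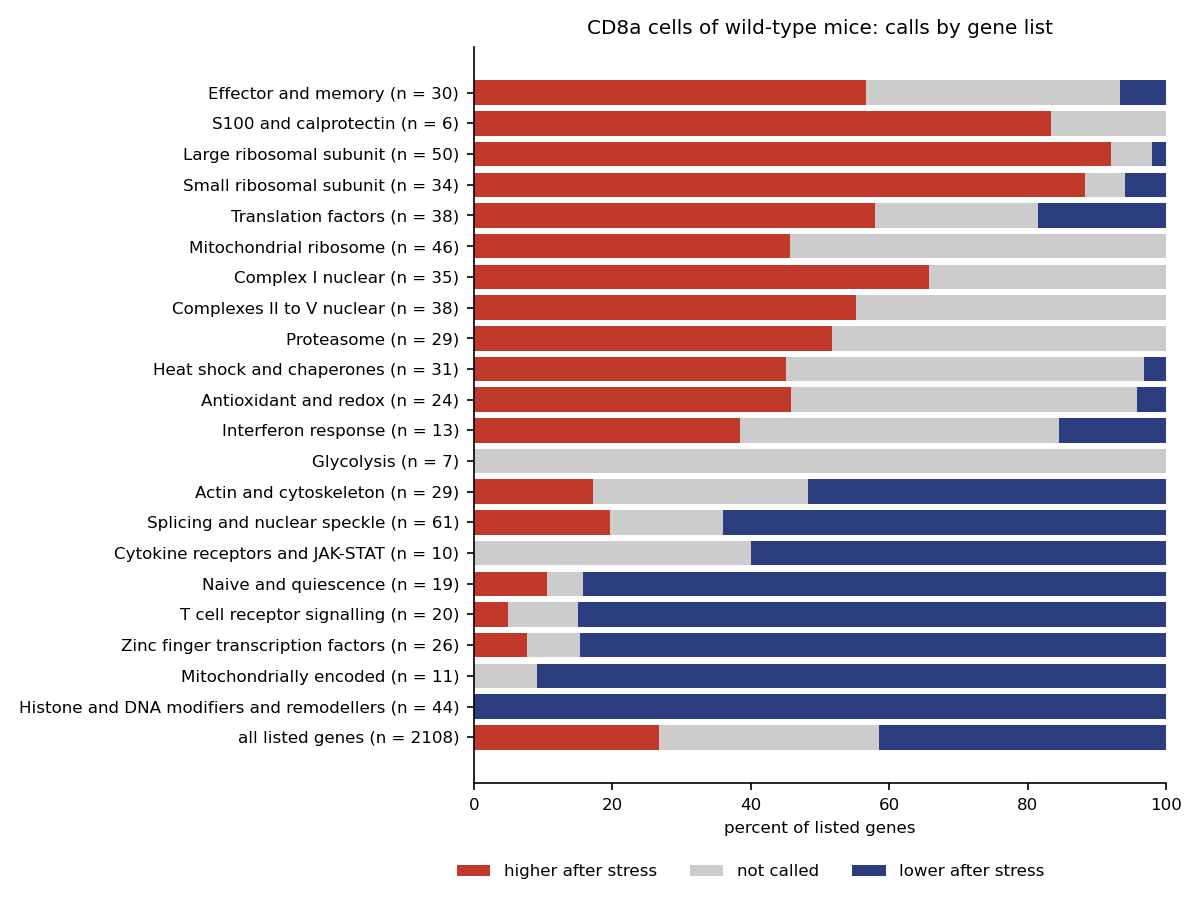
Share of the listed members of each gene list called higher after stress (red), not called (grey) and called lower after stress (blue) in CD8a cells of wild-type mice, with the number of listed genes in brackets and all 2108 genes in the lowest bar. Ribosomal protein lists are almost all red, while histone and DNA modifiers, all 44 of which were called lower, are blue.

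Effector genes were the clearest rises among T cell genes. Of the 30 listed effector and memory genes 17 were called higher and 2 lower, with a median log2 change of 0.30, against 26.7% and 41.5% and a median of 0.09 for all genes. The chemokine Ccl5 (chromosome 11, 83525778 to 83530518, minus strand, mm10), which draws T cells and monocytes, was 18.3, 16.5 and 21.6 in stressed mice, against 6.99, 11.4 and 6.66 in controls. The groups did not overlap, and control mouse 2 was the highest of its group (log2 change 1.20 ± 0.16 SE, adjusted p = 2.4e-05, limma). Xcl1 (chromosome 1, 164931644 to 164935527, minus strand), a chemokine by which CD8 T cells and natural killer cells attract cross-presenting dendritic cells, was 0.511, 0.844 and 0.478 in stressed mice, against 0.248, 0.315 and 0.0917 in controls. The lowest stressed mouse lay above the highest control (log2 change 1.20 ± 0.25, adjusted p = 0.00064). Ly6a, the surface antigen Sca-1, was 0.799, 0.456 and 0.419 in stressed mice, against 0.270, 0.171 and 0.241 in controls, with stressed mouse 1 well above the other two (0.97 ± 0.19, adjusted p = 0.00038).

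Xcl1 and the further members of this list, apart from Itga4, were named after their values were seen. The further rises were smaller. Nkg7, a protein of cytotoxic granules, was 7.47, 6.13 and 6.53 in stressed mice, against 4.96, 5.30 and 4.50 in controls (log2 change 0.44 ± 0.09). Ly6c2, a surface antigen of memory T cells and monocytes, was 4.90, 4.71 and 5.08 in stressed mice, against 3.04, 3.92 and 3.71 in controls (0.46 ± 0.09). Plac8 was 2.11, 1.41 and 1.69 in stressed mice, against 1.17, 1.03 and 1.03 in controls (0.63 ± 0.12). For each of these 3 genes the groups did not overlap. Smaller rises were called in the transcriptional cofactor Hopx (0.47 ± 0.12), in Hcst, the adaptor of the receptor NKG2D (0.44 ± 0.11), and in Crip1 (0.30 ± 0.07). Ccl4, a chemokine of activated T cells, was 0.0211, 0.285 and 0.0837 in stressed mice, against 0.00683, 0.0143 and 0.0202 in controls. Its call rested on stressed mouse 2 and was lost without it, as it was without control mouse 1. Several defining genes of the state did not pass the test: Cd44, the adhesion receptor that marks activated and memory T cells, was 0.327, 0.279 and 0.340 in stressed mice, against 0.256, 0.317 and 0.232 in controls, and the interleukin 2 and 15 receptor chain Il2rb had a change of 0.00 ± 0.13. Both members called lower are long genes. Itga4, an integrin subunit for entry into tissue, was 1.68, 1.69 and 1.47 in stressed mice, against 3.93, 3.30 and 3.73 in controls (-1.13 ± 0.09), and the scaffold Ahnak overlapped between groups (-0.72 ± 0.17). Of the 3 natural killer markers that were listed, Ccl5 and Nkg7 are members of this same list. The third, Klre1, was not called and overlapped between groups, at 0.438, 0.217 and 0.427 in stressed mice, against 0.182, 0.327 and 0.235 in controls. The part of natural killer cells in the result was not tested.

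**Figure D2:**
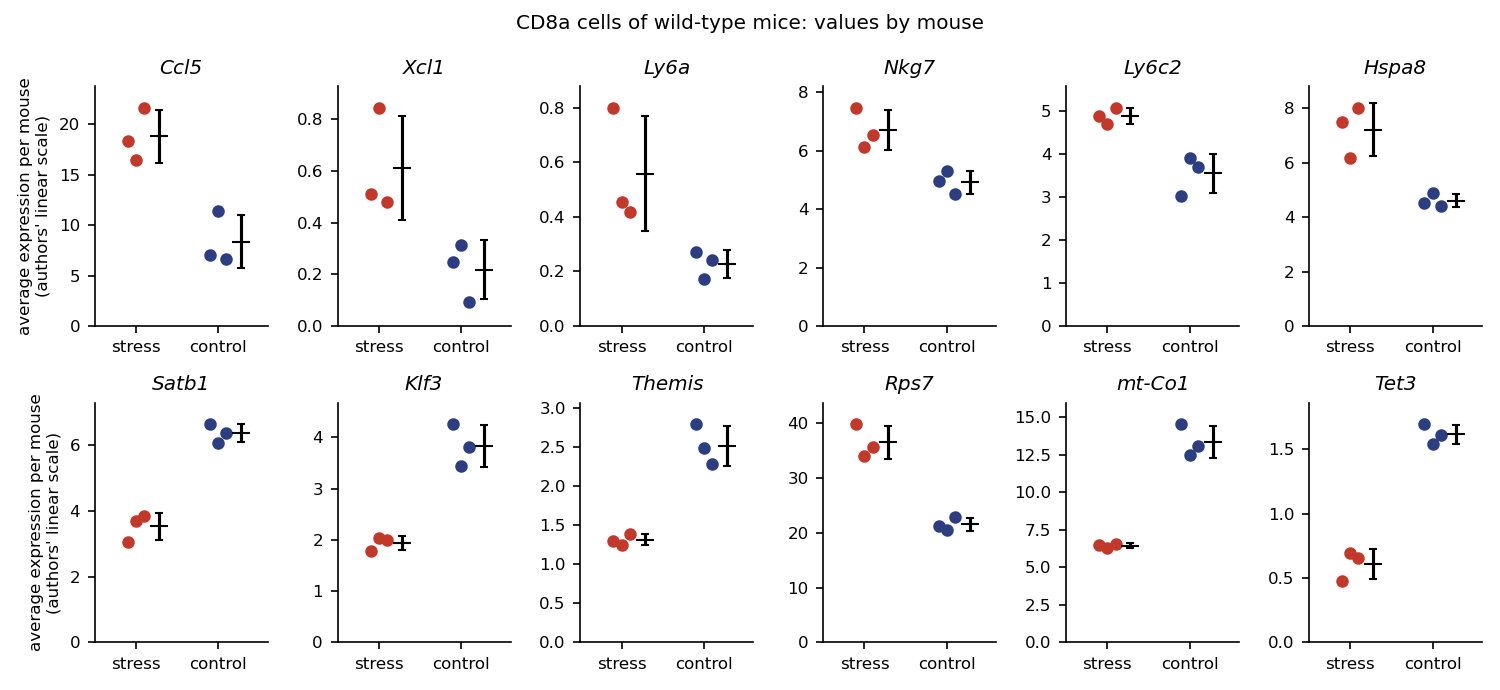
Average expression per mouse of 12 genes in CD8a cells of wild-type mice, stressed mice in red and controls in blue, with the mean and SD over 3 mice as a bar beside the points and every axis starting at 0. Ccl5 averaged 18.8 in stressed mice and 8.34 in controls, and Tet3 0.611 in stressed mice and 1.62 in controls, and in none of the 12 genes do the groups overlap.

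S100 genes encode small calcium-binding proteins, and 5 of the 6 listed were called higher with none lower (median log2 change 0.50), which became 3 higher without stressed mouse 1. S100a6 was 0.947, 0.554 and 0.825 in stressed mice, against 0.294, 0.694 and 0.382 in controls, so the groups overlapped through control mouse 2 (0.69 ± 0.22, adjusted p = 0.014, lost without control mouse 1 or stressed mouse 1). S100a13 was 1.27, 1.37 and 1.44 in stressed mice, against 0.802, 1.09 and 0.990 in controls, with no overlap (0.47 ± 0.11). S100a10, which binds annexin A2, was called at 0.29 ± 0.09, and S100a11 was not called at 0.17 ± 0.10. S100a8 and S100a9, which form calprotectin, were near 0 in all mice. S100a8 (chromosome 3, 90668978 to 90670035, plus strand) was 0.127, 0.0276 and 0.0375 in stressed mice, against 0.00203, 0.0137 and 0.00336 in controls (0.58 ± 0.19, adjusted p = 0.015). Stressed mouse 1 decided that call, which became 0.32 with an adjusted p of 0.057 without it. S100a9 (chromosome 3, 90692632 to 90695721, minus strand) was 0.0889, 0.0368 and 0.0851 in stressed mice, against 0.00415, 0.0337 and 0.0146 in controls (0.53 ± 0.15, adjusted p = 0.0082). The neutrophil granule genes Camp, Lcn2 and Ngp were above 0 in all 3 stressed mice and listed at 0 in all 3 controls, at most 0.0227 in any mouse, and their part in these values was not tested.

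Genes of the naive and quiescent state were mostly lower. Of 19 listed, 16 were called lower and 2 higher (median log2 change -0.67). Satb1 (chromosome 17, 51736187 to 51833290, minus strand), a chromatin organiser of T cells, was 3.06, 3.68 and 3.85 in stressed mice, against 6.62, 6.07 and 6.37 in controls (-0.84 ± 0.09, adjusted p = 4.5e-06, limma). The highest stressed mouse stayed far below the lowest control. Klf3, a zinc finger repressor, was 1.77, 2.04 and 1.99 in stressed mice, against 4.25, 3.44 and 3.81 in controls (-0.95 ± 0.09). Its groups did not overlap, nor did those of S1pr1, the receptor for egress from lymphoid organs (-0.55 ± 0.09). The naive-cell transcription factors Tcf7, Lef1, Foxo1, Foxp1, Bcl11b and Ets1 had changes of -0.59, -0.44, -0.77, -0.76, -0.79 and -0.67, all called. Klf2 and Id3 went the other way. Klf2, which drives expression of S1pr1, was 7.98, 8.67 and 7.96 in stressed mice, against 6.79, 6.50 and 7.39 in controls (0.25 ± 0.07), and Id3, an inhibitor of E proteins, had a change of 0.32 ± 0.10, whose call was lost without control mouse 3 or stressed mouse 3. The gut homing receptor Ccr9 was 1.06, 1.37 and 1.43 in stressed mice, against 3.19, 2.17 and 2.32 in controls (-0.93 ± 0.14). In all, 4 of 5 listed chemokine and homing receptors were called lower and 0 higher. The fifth, Cxcr3, a receptor of effector cells, had a change of 0.29 ± 0.12 and missed the threshold.

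Genes of the T cell receptor complex, of CD8 and of the T cell surface proteins Cd2 and Thy1, taken as 1 list, moved in both directions. Of 7 listed, 2 were called higher and 3 lower, near the shares over all genes (26.7% higher and 41.5% lower). Cd3d was 10.5, 9.95 and 10.7 in stressed mice, against 8.24, 8.21 and 7.77 in controls (0.36 ± 0.07, adjusted p = 0.00025), and Cd3g had a change of 0.23 ± 0.08, lost without control mouse 3. Cd3e, the third CD3 chain, was 4.53, 4.24 and 4.25 in stressed mice, against 5.60, 6.19 and 5.67 in controls (-0.41 ± 0.07, adjusted p = 0.00015). The co-receptor chain Cd8b1 was 8.83, 9.26 and 8.92 in stressed mice, against 11.2, 10.3 and 10.8 in controls (-0.25 ± 0.06, adjusted p = 0.0034). Thy1, a surface glycoprotein of T cells, was also called lower (-0.44 ± 0.07). Trbc2, a constant segment of the receptor's beta chain, did not pass the test at 14.0, 15.4 and 14.9 in stressed mice, against 14.4, 13.5 and 13.2 in controls (0.10 ± 0.07, adjusted p = 0.18).

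Downstream of the receptor most listed genes fell. Of 20 listed signalling genes, 17 were called lower and 1 higher (median log2 change -0.75). Itpkb, a kinase that makes inositol tetrakisphosphate, was 0.937, 1.01 and 1.07 in stressed mice, against 2.06, 2.24 and 2.14 in controls (-1.02 ± 0.09). Ptprc, the phosphatase CD45, was 8.20, 9.52 and 9.94 in stressed mice, against 15.7, 17.2 and 15.8 in controls (-0.81 ± 0.08, adjusted p = 3.0e-06, limma). Themis, an adaptor needed for thymocyte selection, was 1.30, 1.25 and 1.39 in stressed mice, against 2.79, 2.48 and 2.28 in controls (-0.89 ± 0.09). None of these 3 genes overlapped between groups. The paracaspase Malt1 (-1.07 ± 0.13), the exchange factor Rasgrp1 (-0.79 ± 0.09), the kinase Prkcq (-0.74 ± 0.09) and the adaptor Pag1 (-0.99 ± 0.10) were called as well. Exceptions were the adaptor Lat (0.04 ± 0.07) and the phosphatase Ptpn6 (0.08 ± 0.10), not called, and Sh2d1a, the adaptor SAP, called higher (0.32 ± 0.11), a call that was lost without control mouse 3 or stressed mouse 3. Among cytokine receptors and their signalling genes, 6 of 10 were called lower and 0 higher, among them Il6st, the shared chain gp130 (-0.95 ± 0.11), Il6ra (-0.77 ± 0.11), Tgfbr2 (-0.63 ± 0.10) and the common gamma chain Il2rg (-0.41 ± 0.08). The trend of change on transcript length was then removed within each mouse. In that fit 4 of this list's 10 genes were called higher and 2 lower (median -0.13), so the direction of its calls did not hold. After centring on the median 6 were lower and 3 higher (median -0.32).

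**Figure D3:**
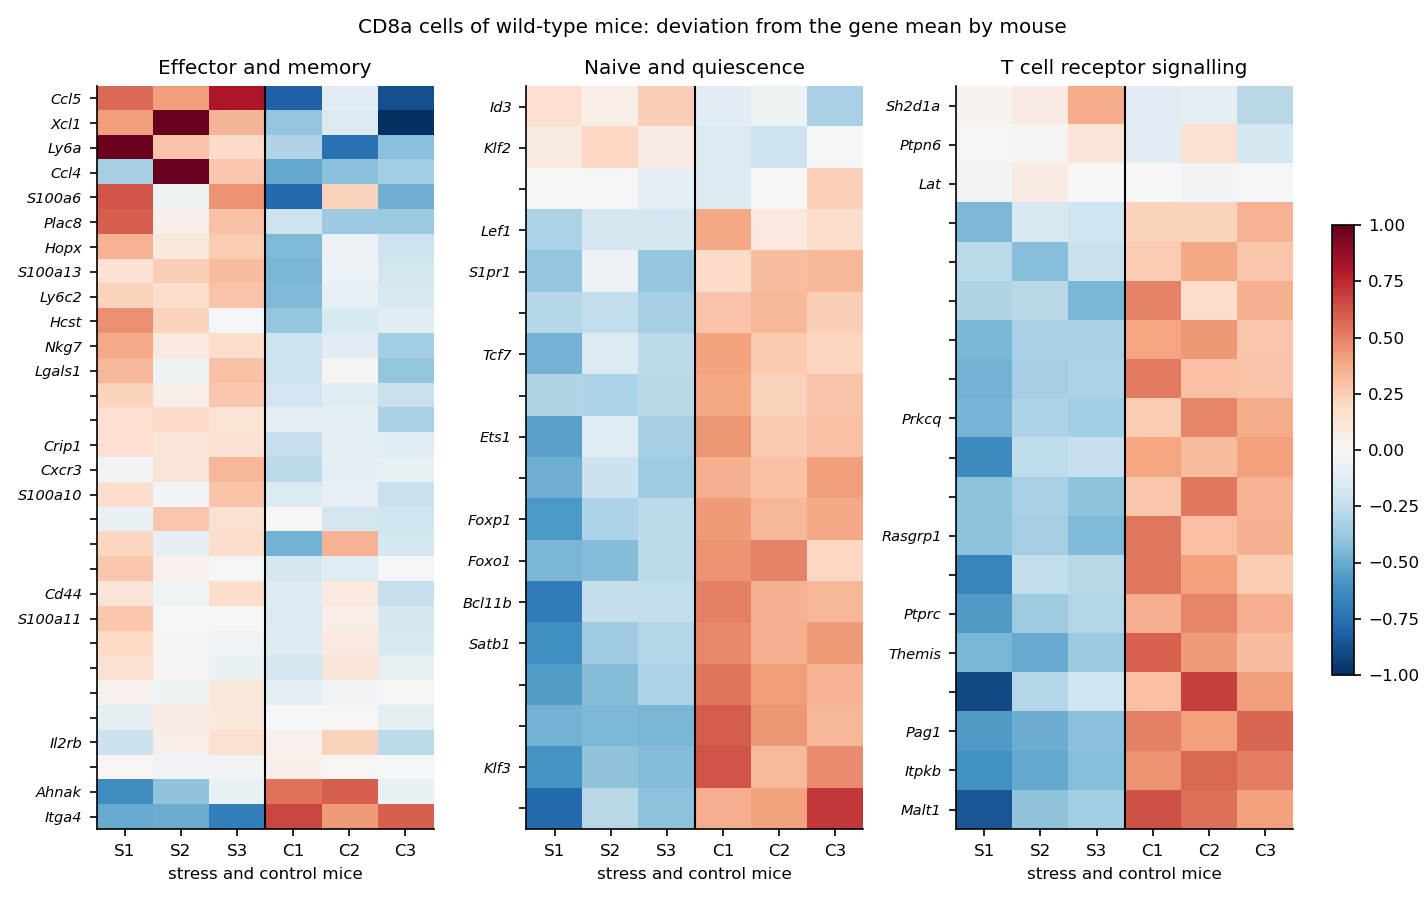
Deviation of log2(value + 0.1) from the mean of the 6 mice for the listed effector, naive and receptor signalling genes, with the 3 stressed mice (S1 to S3) left of the 3 controls (C1 to C3), red above and blue below the gene's mean. In the naive and signalling panels, each drawn without 1 member, the genes called lower are blue on the stressed side, while Klf2, Id3 and Sh2d1a are red there. Rows without a name are further members of the lists.

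Few listed genes belonged to acute activation or exhaustion programmes. Of 7 activation and immediate early genes, 1 was called higher and 2 lower, against 26.7% higher and 41.5% lower over all genes. The costimulatory receptor Tnfrsf18, known as GITR, was 0.480, 0.577 and 0.505 in stressed mice, against 0.379, 0.403 and 0.365 in controls (0.36 ± 0.11, adjusted p = 0.0090, lost without stressed mouse 2). The RNA-binding proteins Zfp36l2 and Zfp36l1, which promote decay of messenger RNAs, had log2 changes of -0.85 and -0.83, both called. Of 14 inhibitory receptor and exhaustion genes looked for, only Tox was listed, at 0.344, 0.401 and 0.362 in stressed mice, against 0.626, 0.663 and 0.587 in controls (-0.63 ± 0.11). No gene of a 20-gene list of glucocorticoid targets was listed, so that response was not analysed here. Of 7 cell cycle genes, Dut and Stmn1 were called higher and the cyclin Ccnd2 lower, and neither Dut nor Stmn1 was called without control mouse 3 or without stressed mouse 1.

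Interferon response genes moved both ways. Of 13 listed, 5 were called higher and 2 lower (median log2 change 0.33), against 26.7% higher and 41.5% lower over all genes. Ly6a, also on the effector list, is 1 of the 5. Ifi27l2a was 4.55, 4.84 and 3.21 in stressed mice, against 2.39, 2.07 and 2.94 in controls (0.74 ± 0.14). Bst2, the antiviral membrane protein tetherin, was 1.22, 1.34 and 1.34 in stressed mice, against 0.780, 1.04 and 0.772 in controls (0.55 ± 0.11). Neither gene overlapped between groups. The classical targets Isg15 and Ifit3 were not called, at 0.37 ± 0.20 each. Gvin3 (-1.21 ± 0.11), a very large interferon-inducible GTPase, and Slfn8 (-0.91 ± 0.10) were lower. The Gvin family and its pseudogenes, such as Gvin-ps6 (-1.17 ± 0.11), are near copies, so reads could be split between them and the value of 1 member is uncertain. For antigen presentation, B2m was 21.0, 20.1 and 21.7 in stressed mice, against 24.6, 24.6 and 25.6 in controls (-0.25 ± 0.06), and H2-D1 was 15.6, 14.9 and 16.6 in stressed mice, against 13.3, 13.5 and 13.3 in controls (0.23 ± 0.06). The fall of B2m was not called after centring on the median (-0.05). H2-D1 shares much of its sequence with other class I genes. Of 29 proteasome subunits and assembly factors 15 were called higher and 0 lower. Those with the smallest p were Psmb1 (0.43 ± 0.07), Psmb5 (0.58 ± 0.10) and the immunoproteasome subunit Psmb8 (0.35 ± 0.07).

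Ribosomal protein genes gave more rises than any other list. Of 50 listed proteins of the large subunit, 46 were called higher and 1 lower, and of 34 proteins of the small subunit, 30 higher and 2 lower, with median log2 changes of 0.50 in both. The large-subunit genes summed to 1826, 1679 and 1680 in stressed mice, against 1197, 1218 and 1291 in controls, and the small-subunit genes to 1823, 1717 and 1740 in stressed mice, against 1262, 1268 and 1348 in controls. Every stressed mouse exceeded every control in both sums. Rpl24 was 6.93, 5.98 and 6.20 in stressed mice, against 3.11, 3.03 and 3.34 in controls (0.99 ± 0.08, adjusted p = 1.8e-06). Rps7 was 39.8, 34.1 and 35.7 in stressed mice, against 21.3, 20.5 and 22.8 in controls (0.76 ± 0.07, adjusted p = 3.0e-06). Rpl11 was 44.4, 40.4 and 41.2 in stressed mice, against 27.7, 27.2 and 27.7 in controls (0.61 ± 0.06). Among those called lower were Rpl23a (-0.19) and Rps15 (-0.16), neither of which was called without control mouse 3 or stressed mouse 2. After centring on the median 0 ribosomal protein genes were called lower by limma. Ribosomal protein genes have many processed pseudogenes, and reads can be shared with them. Of 32 listed ribosomal pseudogenes, a list made after their values were seen, 26 were called higher and 0 lower, among them Rps23-ps1 (1.01 ± 0.09) and Rpl19-ps11 (0.86 ± 0.11). Of the 10 largest rises among abundant genes 7 were ribosomal pseudogenes, among them Rpsa-ps10, Rps10-ps2, Rps10-ps1, Rps27a-ps3 and Rpl10a-ps1, with changes between 0.85 and 0.92. Their values are uncertain for this reason.

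Promoters of ribosomal protein genes are shown because these genes moved together. Sequences are from RefSeq (GRCm38.p6), from 100 bases before to 20 bases after the annotated start, 5′ to 3′ on the gene's strand, with CCGGAAG, searched on both strands, in capitals. These letters hold the core bound by ETS-family factors. The 4 genes shown had the smallest p among called ribosomal protein genes with 1 annotated start and the letters in this window.
Rps7, chr12:28635934-28636053, minus strand: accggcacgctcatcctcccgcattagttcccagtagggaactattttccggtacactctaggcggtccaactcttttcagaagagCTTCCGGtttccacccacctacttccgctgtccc
Rpl11, chr4:136053374-136053493, minus strand: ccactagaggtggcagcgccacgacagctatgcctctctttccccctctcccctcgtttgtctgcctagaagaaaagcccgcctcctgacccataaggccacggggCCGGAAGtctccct
Rps10, chr17:27635225-27635344, minus strand: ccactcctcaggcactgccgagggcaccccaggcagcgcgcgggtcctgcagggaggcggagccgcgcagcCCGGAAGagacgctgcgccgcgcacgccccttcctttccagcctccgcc
Rpl26, chr11:68901466-68901585, plus strand: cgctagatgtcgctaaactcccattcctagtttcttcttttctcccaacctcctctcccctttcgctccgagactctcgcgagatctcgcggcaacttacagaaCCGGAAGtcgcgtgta
In windows from 250 bases before to 50 bases after the start, 24 of 61 matched ribosomal protein genes held these letters (39.3%). The share was 24.8% over all listed genes that matched (379 of 1526) and 9.93% over the 27025 genes of the promoter table. Other sets of listed genes held them often too: 25.8% of nuclear oxidative phosphorylation genes, 27.3% of other genes called higher, 16.7% of genes called lower and 30.3% of genes not called. A match is a description of the letters and not a site.

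Other lists of protein synthesis and respiration had members called higher. In the mitochondrial ribosome and respiratory chain lists these were fewer once the trend of change on transcript length was removed. Of 38 genes in the translation factor list 22 were called higher and 7 lower, against 21 higher and 3 lower with that trend removed. The list also holds genes that are not translation factors. Among them the noncoding RNA Gas5, Npm1 and Nop10 were called higher and Ncl lower. The nascent-chain factor Naca averaged 15.5 ± 0.50 in stressed mice and 10.7 ± 0.66 in controls (SD, n = 3 each, log2 change 0.53 ± 0.07), while the long scaffold genes Eif4g3 (-1.03 ± 0.12) and Eif3a (-0.58 ± 0.07) were lower. Of 46 mitochondrial ribosome genes 21 were called higher and 0 lower, among them Mrps24 (0.52 ± 0.10), and 15 to 19 were called on leaving out any 1 mouse. Nuclear respiratory chain genes called in the test were all higher. Of 35 nuclear complex I genes 23 were called higher and 0 lower (median log2 change 0.32), and of 38 genes of complexes II to V, 21 higher and 0 lower (median 0.25). With the length trend removed 7 of 35 complex I genes were higher and 0 lower, and 7 of 37 genes of complexes II to V higher and 2 lower, near the 18.9% called higher over all genes, with medians of 0.07 and 0.02. Ndufa6 was 2.71, 2.97 and 2.69 in stressed mice, against 2.04, 2.11 and 1.87 in controls (0.46 ± 0.08). Cox8a, a subunit of cytochrome c oxidase, was 6.47, 6.11 and 5.95 in stressed mice, against 4.41, 4.49 and 4.68 in controls (0.44 ± 0.07). Both were separated without overlap.

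Of the 11 listed mitochondrially encoded genes 10 were called lower and 0 higher (median log2 change -0.73). mt-Co1 (chromosome M, 5328 to 6872, plus strand), the catalytic subunit of cytochrome c oxidase, was 6.50, 6.28 and 6.56 in stressed mice, against 14.5, 12.5 and 13.1 in controls (-1.04 ± 0.07, adjusted p = 1.2e-06). mt-Nd5, a complex I subunit, was 4.55, 4.82 and 4.57 in stressed mice, against 10.1, 8.78 and 9.18 in controls (-0.99 ± 0.07). The short gene mt-Atp8, which overlaps mt-Atp6, was 1.70, 1.77 and 1.78 in stressed mice, against 5.65, 3.89 and 4.57 in controls (-1.36 ± 0.11). Stressed mice were far below controls in all 3. The falls differed in size within the genome: mt-Nd1 had a change of -0.37 ± 0.06, mt-Cytb was not called at -0.14 ± 0.06, and the ribosomal RNAs mt-Rnr1 (-0.22 ± 0.08) and mt-Rnr2 (-0.27 ± 0.09) overlapped between groups, with calls that were lost without stressed mouse 2 or 3 or without control mouse 1. Glycolytic enzymes showed no call: 0 of 7 were higher or lower by limma and 0 had an unadjusted p under 0.05, with log2 changes from 0.09 to 0.17. A count of 1 was called without control mouse 1 or stressed mouse 2, and 7 were higher after centring on the median.

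Chaperones rose in part, with counts that moved with single mice. Of 31 listed, 14 were called higher and 1 lower, and 9 higher without stressed mouse 3 or without control mouse 3. Hspa8, the constitutive Hsc70, was 7.49, 6.16 and 8.03 in stressed mice, against 4.52, 4.89 and 4.43 in controls (0.63 ± 0.09, adjusted p = 4.2e-05), and the mitochondrial co-chaperonin Hspe1 was 5.08, 5.15 and 6.87 in stressed mice, against 3.59, 3.67 and 3.28 in controls (0.67 ± 0.10). Hsp90aa1, the inducible Hsp90, was 2.20, 2.98 and 5.06 in stressed mice, against 2.33, 2.42 and 1.99 in controls. Only stressed mouse 3 stood clearly above the controls, and the call (0.50 ± 0.21, adjusted p = 0.043) was lost on leaving out any mouse but stressed mouse 1. Hsph1 showed the same order of mice, at 0.624, 0.954 and 1.42 in stressed mice, against 0.670, 0.703 and 0.587 in controls. Hsp90ab1 was not called (0.13 ± 0.15). Of 24 antioxidant genes 11 were called higher and 1 lower, among them Selenok (0.52 ± 0.09) and the ferritin chain Ftl1 (0.31 ± 0.07), with Sesn3 lower (-0.68 ± 0.09).

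Falls were common among nuclear regulators. All 44 listed histone and DNA modifiers and remodellers were called lower, with log2 changes from -1.29 to -0.55 (median -0.84). Tet3 (chromosome 6, 83362373 to 83459084, minus strand), which oxidises methylcytosine, was 0.476, 0.699 and 0.658 in stressed mice, against 1.70, 1.54 and 1.61 in controls (-1.29 ± 0.12, adjusted p = 2.7e-06). Atrx, a chromatin remodeller of heterochromatin, was 1.62, 1.66 and 1.78 in stressed mice, against 3.45, 3.26 and 3.18 in controls (-0.93 ± 0.08). Bptf, a subunit of the remodelling complex NURF, had a change of -0.91 ± 0.08 and Phf20l1 one of -0.95 ± 0.08. Of 26 genes in the zinc finger list, which was made by gene symbol, 22 were called lower and 2 higher. The list is not confined to transcription factors. It holds the RNA-binding Zfp36l1 and Zfp36l2, both called lower, and the 2 called higher were Zbtb11os1, named as an opposite-strand gene, and Zfp593. Those with the smallest p were Zbtb20 (-1.11 ± 0.09), Zfp292 (-0.99 ± 0.10) and Zkscan3 (-1.09 ± 0.11). Of 61 splicing and nuclear speckle genes 39 were called lower and 12 higher. Hnrnpu was 2.76, 2.85 and 2.88 in stressed mice, against 4.99, 4.94 and 4.94 in controls (-0.79 ± 0.07), and the nuclear long RNA Malat1 was 122, 117 and 111 in stressed mice, against 188, 178 and 195 in controls (-0.68 ± 0.07). Prpf38b (-1.06 ± 0.08) and Bclaf1 (-0.94 ± 0.08) were lower as well.

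Kcnq1ot1 (chromosome 7, 143203458 to 143296549, minus strand), an imprinted antisense RNA, had the largest fall among the named genes, at 1.52, 1.92 and 1.95 in stressed mice, against 5.21, 4.90 and 4.64 in controls (-1.41 ± 0.10, adjusted p = 1.2e-06). It lies antisense to Kcnq1. Further large falls were those of Cmah, an enzyme of sialic acid synthesis (-1.17 ± 0.14), Ankrd11 (-1.16 ± 0.09), Tcf20 (-1.15 ± 0.12) and Git2 (-1.14 ± 0.10). In the cytoskeleton list of 29 genes, 15 were called lower and 5 higher, where 41.5% of all genes were lower and 26.7% higher. After centring on the median 14 of the 29 were lower and 13 higher. Macf1, a linker of actin and microtubules, was 1.98, 2.96 and 2.86 in stressed mice, against 6.78, 6.32 and 5.51 in controls (-1.24 ± 0.13), Myh9, the heavy chain of non-muscle myosin, was 3.33, 4.20 and 4.12 in stressed mice, against 8.16, 7.89 and 7.63 in controls (-1.01 ± 0.09), and the scaffold Iqgap1 fell by 0.96. The small actin-binding Tmsb4x went the other way, at 134, 121 and 135 in stressed mice, against 113, 109 and 105 in controls (0.26 ± 0.07). Survival genes were split, with 4 of 11 called higher and 4 lower, near the shares over all genes (26.7% higher and 41.5% lower). The count called higher was 1 without control mouse 3 and 2 without stressed mouse 2. Those called lower included the caspase 8 inhibitor Cflar (-0.83 ± 0.09), Gimap8 (-0.91 ± 0.10) and Birc6 (-0.94 ± 0.12).

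The direction of change went with transcript length. Protein-coding genes called higher had a median length of 1119 bases (481 genes), those called lower 5562 bases (692 genes) and those not called 1434 bases (627 genes). Of 695 protein-coding genes with transcripts of at least 3000 bases, 30 were called higher and 598 lower, and of 378 under 1000 bases, 203 were called higher and 11 lower. With the trend of change on length removed within each mouse, 395 genes were called higher (18.9%) and 341 lower (16.3%) of the 2094 with a length (35.1% called). Of the 563 genes called higher 245 remained higher, and of the 875 called lower 328 remained lower and 15 turned higher. The calls after this fit differed between lists. Mitochondrially encoded genes, which are short, were lower in all 11 cases, against 10 before the fit. Chaperones were higher in 18 of 30, against 14 of 31 before it, so the fit added calls in both lists. Ribosomal proteins were higher in 32 of 50 of the large and 20 of 34 of the small subunit. The effector list had 9 higher and 3 lower of 30, with Ccl5 at 0.86 and Xcl1 at 0.86. Several lists lost most of their calls or were left near the shares over all genes. The mitochondrial ribosome had 12 higher of 46 and 0 lower, the zinc finger list 6 lower and 3 higher of 26, and the splicing genes 17 lower and 10 higher of 61. Signalling genes had 8 lower of 20, naive genes 3 lower and 2 higher of 19, and histone and DNA modifiers, whose median length was 9403 bases, 3 lower and 1 higher of 44, with a median change of -0.02. S100 genes had 0 calls of 6, with S100a9 at 0.19 and S100a8 at 0.22. Satb1 (-0.13), Atrx (-0.07) and Kcnq1ot1 (-0.02) were no longer called, while Tet3 (-0.60), Itpkb (-0.32) and Klf3 (-0.31) were. The part of length in these falls was not tested beyond this fit.

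**Figure D4:**
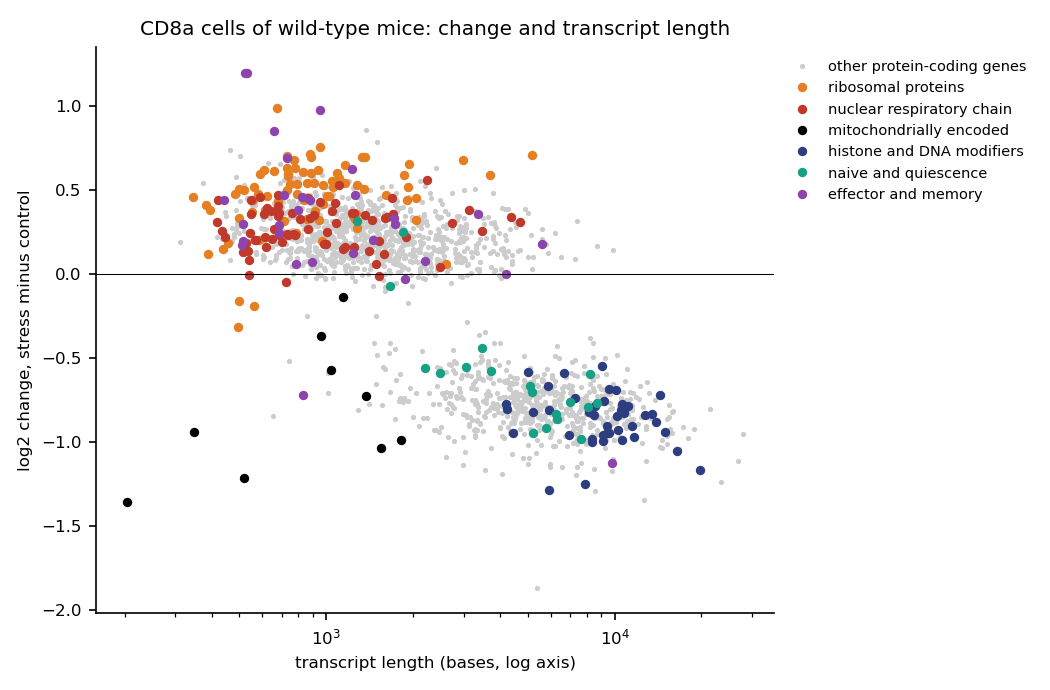
Log2 change of stress minus control in CD8a cells of wild-type mice against the length of the transcript in bases (log axis) for protein-coding genes, with 6 gene groups in colour. Genes called lower lie at long transcripts (median 5562 bases) and genes called higher at short ones (median 1119 bases), while the mitochondrially encoded genes are short and below 0.

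The same 2108 genes were then tested in the knockout mice, which the listing for wild type did not compare and which share no control mice with it. There 1234 genes were called (58.5%), 360 higher (17.1%) and 874 lower (41.5%), with a median change of -0.04. Of the 875 genes lower in wild type 860 were lower in knockout mice (98.3%), and all 875 had the same sign. Of the 563 genes higher in wild type 291 were higher in knockout mice (51.7%), 2 were lower and 525 had the same sign. The median change of the genes called higher in wild type was 0.25 in knockout mice, against 0.38 in wild type, and that of the genes called lower was -0.68 in knockout mice, against -0.79 in wild type. The wild-type values chose these genes, so the smaller medians in knockout mice are no measure of a weaker response.

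Lists behaved alike in part. In knockout mice 15 of 30 effector genes were called higher and 2 lower, and Ccl5 was 16.3, 27.1 and 36.5 in stressed knockouts, against 8.47, 10.1 and 14.8 in knockout controls (1.22, adjusted p = 0.00026). Of the signalling genes 18 of 20 were lower, of the naive genes 16 of 19, and of the histone and DNA modifiers all 44, while 47 of 50 large-subunit and 31 of 34 small-subunit proteins were higher. Calls of higher genes were fewer over the whole table, 17.1% in knockout mice, against 26.7% in wild type, and no difference between the genotypes was tested for a list. Interferon genes had 0 higher of 13 in knockout mice, against 5 in wild type, chaperones 5 of 31, against 14, mitochondrial ribosome genes 10 of 46, against 21, and proteasome genes 8 of 29, against 15. Ifi27l2a was 5.69, 4.64 and 4.92 in stressed knockouts, against 7.97, 4.58 and 2.85 in knockout controls, a spread of controls that covered the stressed mice. S100a9 was 0.0403, 0.00779 and 0.0337 in stressed knockouts, against 0.0461, 0.0322 and 0.0307 in knockout controls, and the deleted part of the gene is not in the labels, so these reads do not check the genotype. mt-Nd3 was at most 0.0111 in every knockout mouse, so its change of -0.02 there compares values near 0. Whether the stress effect differed between genotypes was tested over the 2851 genes listed for any CD8a comparison. By limma's interaction term 0 genes passed (0.0%), with 204 at an unadjusted p under 0.05 and a smallest adjusted p of 0.13. For S100a9 the difference was 0.63 ± 0.20 (adjusted p = 0.62), for Ifi27l2a 0.63 ± 0.33 (0.69), for Plac8 0.52 ± 0.21 (0.67) and for Ccl5 -0.02 ± 0.33 (0.99). A p that misses the threshold does not show that the genotypes respond alike.

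**Figure D5:**
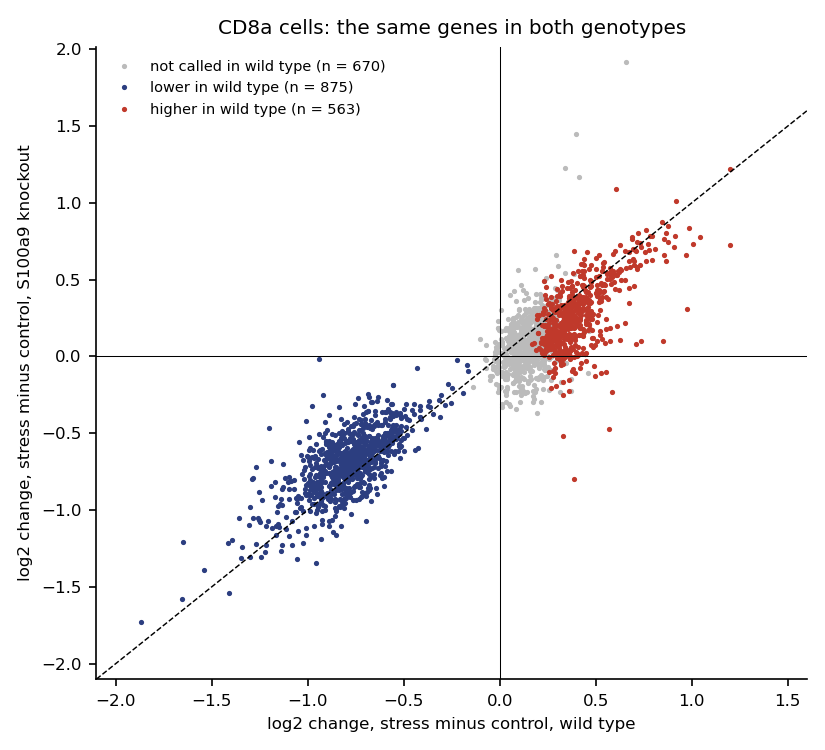
Log2 change of stress minus control in CD8a cells of knockout mice (vertical) against that of wild-type mice (horizontal) for 2108 genes, coloured by the call in wild type, with the line of equal change dashed. The 875 genes called lower in wild type all lie below 0 in knockout mice, and of the 563 called higher, 525 lie above 0.

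Within the same wild-type mice, CD4 cells gave values for many of these genes. The stress effect in CD8a cells minus that in CD4 cells was tested over 2166 genes listed in both cell types, and by limma 0 passed (0.0%), with 168 at an unadjusted p under 0.05 and a smallest adjusted p of 0.35. Ccl5 changed by 2.56 in CD4 cells and 1.20 in CD8a cells, a difference of -1.36 ± 0.34 (adjusted p = 0.48). Its CD4 values were 22.8, 7.19 and 20.4 in stressed mice, against 2.45, 3.22 and 1.87 in controls. Without stressed mouse 2, the lowest of the stressed mice in CD4 cells, Ccl5 was the 1 gene that passed (-1.80, adjusted p = 0.041). Effector genes also had the larger estimates in CD4 cells for Nkg7 (1.23, against 0.44 in CD8a cells), S100a6 (1.48, against 0.69) and Lgals1 (1.13, against 0.38), and none of these 3 differences passed. The median change of the listed effector genes was 0.51 in CD4 cells (26 genes) and 0.30 in CD8a cells (30 genes), and that of the histone and DNA modifiers -0.84 in both. Over all listed genes with a value the median was 0.18 in CD4 cells (1714 genes) and 0.09 in CD8a cells (2108 genes). A difference between the cell types was not tested for any list.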

How the data were processed

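Splenocyte libraries were made with a droplet kit for transcript 3′ ends that carries molecular identifiers, per the labels' protocols. The submitters' processing notes name Cell Ranger 2.1.1 and mm10. How cells were filtered and typed, how doublets were treated and how genes were chosen for listing are not stated in the labels. The authors deposited a signal, the average expression per mouse and cell type on a linear scale, so depth and cell numbers are unknown and no counting interval is given. Nothing in the labels beyond separate mice describes the replicates.

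limma 3.58.1 (R 4.3.3, trended empirical Bayes) was fitted to log2(value + 0.1), 3 mice against 3, two-sided, with Benjamini-Hochberg adjustment over all fitted genes and calls under 0.05. Since the authors chose the genes with these mice, that threshold need not hold false calls to its share. Fold changes understate low genes, and errors after a log2 change are standard errors. Knockout mice, the interaction over 12 mice and the CD8a minus CD4 difference within each mouse had the same treatment, and the fits were tested on simulated data. Positions and transcript lengths are from GENCODE M21, on the assembly of mm10 (99.3% of 2108 genes matched, 36 by an older symbol), taking the longest principal transcript where one was marked.

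The members and gene lists were chosen with earlier results of these data known. Text names the given markers, S100a8 and S100a9. It names 10 rises and 10 falls, the largest among called genes that did not overlap and were at or above the median level of 0.729, without predicted genes and receptor segments. It also names the 3 smallest p of each list with at least 3 calls. Ribosomal pseudogenes, and all genes outside these rules, were chosen after their values were seen. Promoters came from RefSeq's GRCm38.p6 table, by symbol. The alternatives were a pseudocount of 0.01 or 1, leaving out the lowest 25% of genes, centring on each mouse's median, rescaling without ribosomal protein and mitochondrially encoded genes, taking out the length trend (loess span 0.5), a block for mouse number, leaving out each mouse, and 1 fit of all 4 groups.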

Additional observations from a re-analysis of the deposited data

Results flagged for a closer look

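In 5 genes every stressed wild-type mouse lay above every wild-type control while every stressed knockout lay below every knockout control. None of the 5 differences passed limma's interaction test over 2851 genes. Coro2a, a coronin family member, was 0.232, 0.285 and 0.181 in stressed wild-type mice, against 0.164, 0.173 and 0.124 in wild-type controls. In knockouts Coro2a was 0.0657, 0.155 and 0.102 with stress, against 0.293, 0.269 and 0.209 without, a difference between genotypes of 1.18 ± 0.22 (adjusted p = 0.13). Ung, a uracil-DNA glycosylase, was 0.148, 0.134 and 0.114 in stressed wild-type mice, against 0.0688, 0.0841 and 0.102 in wild-type controls, and 0.0950, 0.0857 and 0.0345 in stressed knockouts, against 0.144, 0.138 and 0.145 in knockout controls, a difference of 0.84 ± 0.19 (adjusted p = 0.21). The predicted gene 1110065P20Rik had a difference of 0.82 ± 0.17 (adjusted p = 0.17), the mitochondrial ribosome gene Mrps30 one of 0.47 ± 0.17 (0.65) and Lage3 one of 0.35 ± 0.14 (0.66). The opposite order in the genotypes chose these 5 genes from 2108. All 5 were below the median level of the table.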

How the results depend on the processing

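Of the 1438 genes called in wild type, 563 higher and 875 lower, removing the length trend left 736 (395 and 341), and the 1234 calls in knockout mice became 643 (346 and 297). Centring gave 1142 higher and 854 lower in wild type and 901 and 772 in knockout mice, where it moved the median from -0.04 to 0.17, and the counts under the other alternatives were within 1.5 times of these. Leaving out each mouse gave 1331 to 1370 calls in wild type, 1112 to 1247 in knockout mice, 0 to 1 by genotype (Coro2a, without knockout stressed mouse 2) and 0 to 1 for CD8a minus CD4 (Ccl5). Same-numbered wild-type mice did not deviate together (r = -0.13, -0.02 and -0.27). Deviations from a mean of 3 mice constrain one another, so these values cannot exclude a pairing, and knockout mice were not checked. A replicate block gave 1350 calls in wild type, 1293 in knockout mice, 1 by genotype (Coro2a, adjusted p = 0.047) and 0 for CD8a minus CD4. Among 95 named genes, removing the length trend reversed 8: Trbc2 (-0.19), S100a10 (-0.0032), Eif3a (0.05), Zbtb20 (0.0022), Utrn (0.066), Sesn3 (0.14), Ccnd2 (0.28) and Birc6 (0.042), and 28 more lost their call. The cause was not tested. Depth and cell numbers are unknown, and 3 mice a group limit every call.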

Other observations

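Genes outside the lists showed further rises and falls, and all but Ctla2a, 1 of the 10 largest rises, were chosen after their values were seen. The polyubiquitin gene Ubb was 5.69, 3.76 and 3.20 in stressed mice, against 2.22, 2.47 and 2.33 in controls (log2 change 0.78 ± 0.15, adjusted p = 0.00041, limma), and 0.79 in knockout mice. Ctla2a, a cathepsin inhibitor of T cells, was 1.97, 1.33 and 1.72 in stressed mice, against 1.04, 1.01 and 0.617 in controls (0.86 ± 0.17). The non-coding transcript AW112010 was 6.62, 5.96 and 7.71 in stressed mice, against 4.48, 4.95 and 4.04 in controls (0.58 ± 0.10). The groups did not overlap in any of these 3 genes.

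Falls outside the lists included surface and signalling genes. Spn, the sialoglycoprotein CD43, was 0.977, 1.17 and 1.15 in stressed mice, against 2.38, 2.35 and 2.31 in controls (-1.03 ± 0.09). Cd84, a SLAM family receptor, was 0.880, 0.976 and 1.09 in stressed mice, against 2.12, 1.80 and 1.92 in controls (-0.92 ± 0.10). Rictor, the defining subunit of mTORC2, had a change of -0.99 ± 0.09, the transcription factor Creb1 one of -1.02 ± 0.09 and Klf7 one of -1.13 ± 0.11. With the length trend removed, Spn (-0.56), Cd84 (-0.53), Creb1 (-0.40) and Klf7 (-0.36) were still called and Rictor (-0.16) was not.

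Across mice, stressed mouse 1 was the farthest from the controls, with correlations over genes of 0.93 with each control, and it had 15 listed genes at 0, against 3 and 4 in the other stressed mice and 0 to 2 in controls. Without it 470 genes were called higher and 872 lower.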
